A study of Saccharomyces cerevisiae with 18 samples.

Results

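Budding yeast carries pairs of genes for the same protein of which one member serves aerobic cells and the other serves cells short of oxygen or heme. In all, 10 genes of this system were followed in 18 RNA-seq libraries, matched by gene name among the 6713 loci with values: the cytochrome c genes CYC1 (iso-1, aerobic) and CYC7 (iso-2, hypoxic), the eIF5A genes HYP2 (aerobic) and ANB1 (hypoxic), the mitochondrial ADP/ATP carriers PET9 (the major carrier, also AAC2), AAC1 (a minor aerobic form) and AAC3 (hypoxic), the regulators ROX1 and HAP1, and HEM13, which encodes coproporphyrinogen oxidase of heme synthesis. Heme is made with oxygen and serves the cell as a signal of it. Hap1 is a transcription factor activated by heme, and Rox1, made under heme, is a repressor of hypoxic genes such as ANB1, AAC3 and HEM13. Glucose repression acts on the same aerobic genes: the Hap2/3/4/5 complex activates CYC1 and other respiratory genes on carbon sources that are not fermented.

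All libraries came from S96, a haploid strain isogenic to S288c (MATa lys5), in which the coding region of the transcription factor gene YRR1 had been replaced by a hygromycin-resistance gene. Each strain carried 1 allele of YRR1 on the plasmid pGS35 under the gene's own promoter and terminator: YRR1_S96 (here the S96 allele), YRR1_YJM789 from the clinical isolate YJM789 (the YJM789 allele), or YRR1_S96-I775E, the S96 allele with an isoleucine changed to glutamate (the I775E allele). G418 kept the plasmid. The media were YPD, YPglycerol, and YPD to which the DNA-damaging agent 4-nitroquinoline-1-oxide (4NQO) was added at 0.25 µg/ml, with 2 cultures in each of the 9 groups that these make. The YPD and 4NQO cultures were taken after 2.5 h. The glycerol cultures were, by the study's methods, washed and grown 10 h in 3% glycerol, whereas the sample labels describe cultures raised in YPglycerol until mid-log and give no hours or wash. Which of these holds is not settled here, and carbon source, time and any washing cannot be told apart in a comparison of glycerol with YPD. Library totals ran from 1475372 to 2826771 counts, and duplicate libraries correlated across loci at r = 0.963 to 0.985 on log2 CPM (counts scaled to library size). Of the 10 genes 9 were among the 5766 loci tested; HYP2 was not. A measured difference between the strains stands beside every result of the I775E allele: SNF1, the gene of the protein kinase needed to relieve glucose repression, had between 0 and 2 counts in each of the 6 I775E libraries and between 179 and 297 in the 12 others. Counts over YRR1 itself were also lower with I775E than with S96. The means were 45.7 against 119 CPM in YPD, 58.2 against 138 in 4NQO and 118 against 234 in glycerol. No I775E library overlapped the S96 libraries of its medium. The YJM789 means lay between, at 88.4, 103 and 168 CPM. The YRR1 allele, the level of YRR1 and a change at SNF1 cannot be told apart in these libraries.

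Stretches upstream of 5 of the genes are shown. The Rox1-repressed ANB1, AAC3 and HEM13 were the 3 that fell with the S96 allele in both 4NQO and glycerol. CYC1 and the hypoxic CYC7 were 2 of the 5 that rose in both. The others that rose in both, PET9, AAC1 and ROX1, are not shown, so the printed set is a choice. In the window searched below, ROX1 held 1 match to ATTGTT and PET9 and AAC1 held 0. A link between sequence and direction was not tested. Each stretch holds the 100 bases from 250 to 151 bases before the coding start, 5′ to 3′ on the gene's strand, from the RefSeq R64 genome, which is the build of the files. Capitals mark ATTGTT, the core of the Rox1 site.
ANB1, chrX:525532-525631, minus strand: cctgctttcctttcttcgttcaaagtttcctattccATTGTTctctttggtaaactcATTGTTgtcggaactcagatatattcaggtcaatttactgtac
AAC3, chrII:415733-415832, plus strand: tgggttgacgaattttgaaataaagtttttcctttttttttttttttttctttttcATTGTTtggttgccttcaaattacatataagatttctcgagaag
HEM13, chrIV:546392-546491, plus strand: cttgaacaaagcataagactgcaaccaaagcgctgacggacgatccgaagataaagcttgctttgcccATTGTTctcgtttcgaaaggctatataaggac
CYC1, chrX:526085-526184, plus strand: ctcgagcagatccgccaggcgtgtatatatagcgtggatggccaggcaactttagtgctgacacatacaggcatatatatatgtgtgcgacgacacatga
CYC7, chrV:80128-80227, minus strand: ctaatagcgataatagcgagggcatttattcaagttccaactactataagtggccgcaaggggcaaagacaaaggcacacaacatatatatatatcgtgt
In the whole window of 300 bases, from 250 before to 50 after the coding start, ANB1 and AAC3 held 2 matches each to ATTGTT on either strand, HAP1 2, and ROX1 and HEM13 1 each. Of all 6001 windows 35.2% held 1 or more. With the S96 allele HAP1 did not pass in either treatment and ROX1 rose in both. The second AAC3 match and that of ROX1 overlapped the start codon, from 4 bases before it to its base 2. CCAAT, the Hap2/3/4/5 motif, had 2 matches upstream of HYP2, 1 upstream of AAC1 and 1 inside the coding region of HEM13, against 43.3% of all windows. No member's window held CGGNNNTA, the first part of the Hap1 site, which 22.1% of all windows held. Bases more than 250 before a coding start were not searched, so sites further upstream would be missed. The motifs do not overlap one another in these windows. ANB1 and CYC1 are neighbours on chromosome X, transcribed away from each other, with 953 bases between their coding starts. A match is a string of letters and not a measured site.

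On build R64 the annotation puts the protein-coding locus CYC1 (YJR048W) to chromosome X, 526335 to 526664, CYC7 (YEL039C) to chromosome V, 79636 to 79977, ANB1 (YJR047C) to chromosome X, 524908 to 525381, PET9 (YBL030C) to chromosome II, 163041 to 163997, AAC1 (YMR056C) to chromosome XIII, 387315 to 388244, AAC3 (YBR085W) to chromosome II, 415983 to 416906, ROX1 (YPR065W) to chromosome XVI, 679693 to 680799, HAP1 (YLR256W) to chromosome XII, 646415 to 650923 and HEM13 (YDR044W) to chromosome IV, 546642 to 547628. HYP2 (YEL034W, chromosome V, 85676 to 86149) had 0 counts in all 18 libraries. It lies wholly inside YEL034C-A, a locus of the opposite strand (85613 to 86215) that reaches 63 bases beyond it to the left and 66 to the right and had 4 to 31 counts per library. The libraries did not keep strand. Of the 180 loci in the table that lie wholly inside another, 158 (87.8%) had 0 counts in every library, against 143 of 6533 other loci (2.19%). HYP2 and ANB1 shared 90.9% of 474 coding bases, but no stretch of 76 bases, the read length, in either gene came within 2 mismatches of the other. The 0 is therefore given as the listed value of a nested locus and not as a level of HYP2, and no ANB1 to HYP2 ratio could be had. The other coding regions were 77.0% identical for CYC1 and CYC7, 79.1% for PET9 and AAC3, 71.9% for PET9 and AAC1 and 68.6% for AAC1 and AAC3. Again no stretch of read length came within 2 mismatches of its partner. Partial overlap of the other members with annotated loci was not tested.

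**Figure D1:**
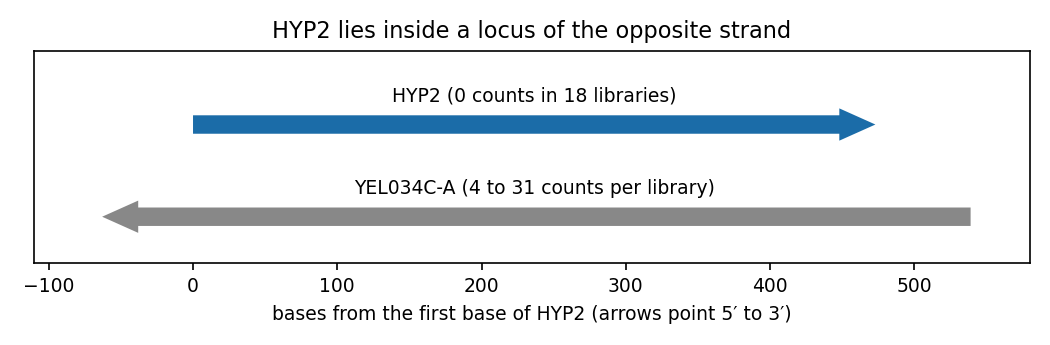
Position of HYP2 and YEL034C-A, in bases from the first base of HYP2, with arrows pointing 5′ to 3′. HYP2, with 0 counts in 18 libraries, lies within the longer locus of the other strand.

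Glycerol moved 8 of the 9 tested genes with the S96 allele, and the same 8 in the same directions with the YJM789 allele: CYC1, CYC7, PET9, AAC1 and ROX1 rose and ANB1, AAC3 and HEM13 fell. Over all loci 57.7% and 55.6% passed the test in these comparisons. With the I775E allele 7 passed, where 65.5% of all loci did: CYC7, PET9, AAC1 and HAP1 rose, and ANB1, AAC3 and HEM13 fell. 4NQO gave the same 8 calls as glycerol with the S96 allele (background 31.2%), 5 with the YJM789 allele (CYC1, CYC7 and PET9 up, AAC3 and HEM13 down; 20.2%) and 4 with the I775E allele (CYC7, PET9 and ROX1 up, ANB1 down; 25.9%). The YPD libraries of an allele served both of its comparisons, so the 2 sets of calls are not independent. A gene is called here at an adjusted p under 0.05 in edgeR's quasi-likelihood test, adjusted over the 5766 loci, and levels are CPM scaled by library.

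Between the YJM789 and S96 alleles, none of the 9 genes passed the test in YPD, 4NQO or glycerol, where 0.884%, 0.052% and 3.75% of all loci passed in edgeR, and none passed for its response to glycerol (0.624%) or 4NQO (0.867%). Before adjustment, p was under 0.05 for 0 genes in YPD, 1 in 4NQO (PET9) and 3 in glycerol (CYC1, CYC7 and PET9), 0 for the glycerol response and 2 for the 4NQO response (CYC1 and HEM13), and DESeq2 called 0, 0, 1 (CYC7), 0 and 0 of the 9 in the same order. The I775E allele differed from the S96 allele at 2 genes in YPD (background 11.7%), 3 in 4NQO (4.51%) and 8 in glycerol (48.3%). The response itself differed between these 2 alleles at 7 genes for glycerol (31.4%) and at 2 for 4NQO (5.06%). The median over all loci lay at -0.11 for I775E against S96 in glycerol and at -0.13 for the difference in response, on the log2 scale, and between -0.02 and 0.04 in the other 14 comparisons.

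**Figure D2:**
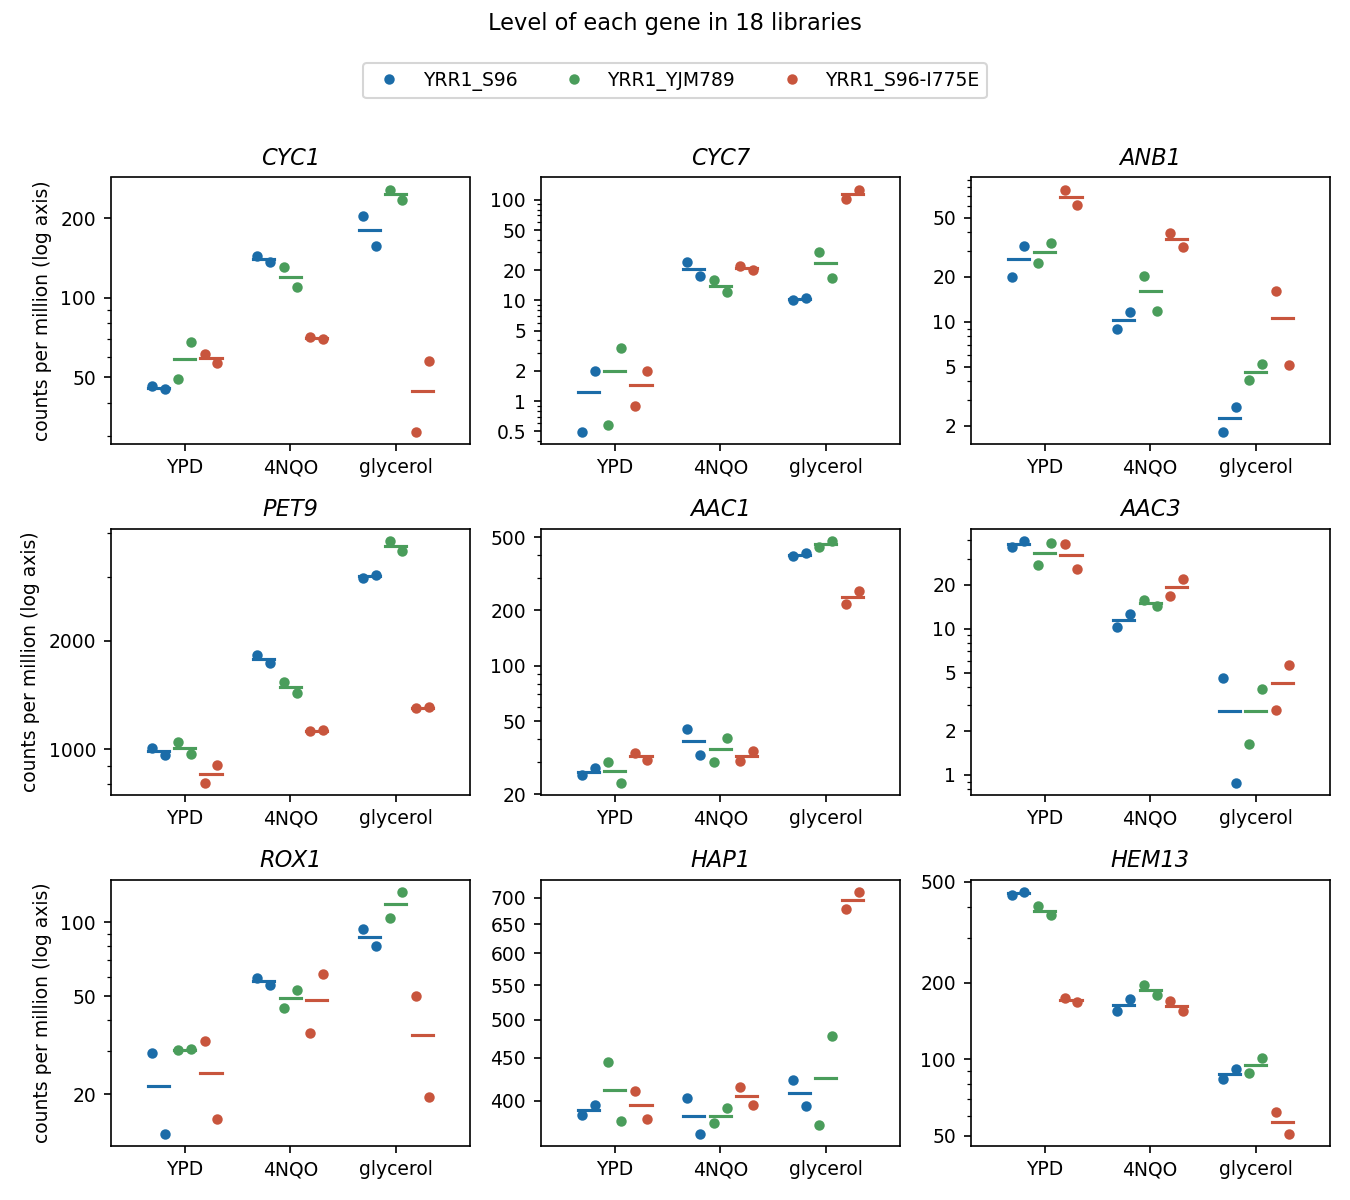
CPM on log axes for the 9 genes with counts, in YPD, 4NQO and glycerol; points are libraries, 2 per allele and medium, and bars their means. The 2 I775E glycerol libraries lie above all other libraries for CYC7 and HAP1.

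Cytochrome c carries electrons from complex III to cytochrome oxidase, and CYC1 supplies nearly all of it in aerobic cells. CYC1 stood at 46.3 and 45.0 CPM with the S96 allele in YPD, 144 and 136 in 4NQO and 204 and 157 in glycerol. With the YJM789 allele it stood at 49.3 and 67.9 CPM in YPD, 131 and 109.6 in 4NQO and 256 and 235 in glycerol. Both alleles' libraries in either treatment lay above all their YPD libraries. With the I775E allele the YPD libraries gave 61.5 and 56.6 CPM, those in 4NQO 71.2 and 69.99, and those in glycerol 31.2 and 57.7. CYC1 rose in glycerol by a log2 fold change of 1.98 ± 0.20 (SE) with the S96 allele (edgeR adjusted p = 3.68e-10) and 2.07 ± 0.19 with the YJM789 allele (adjusted p = 1.30e-10), while the I775E allele gave -0.37 ± 0.22 (adjusted p = 0.133). In 4NQO the S96 and YJM789 alleles rose by 1.62 ± 0.20 and 1.03 ± 0.20 (edgeR adjusted p = 1.21e-07 and 0.000246), and the I775E allele gave 0.26 ± 0.20 (adjusted p = 0.381). Set against the S96 allele, I775E was lower, with a log2 fold change of -1.98 ± 0.20 in glycerol and -0.99 ± 0.19 in 4NQO (edgeR adjusted p = 2.71e-09 and 0.000974). The response of CYC1 differed between these alleles by -2.35 ± 0.29 for glycerol and -1.36 ± 0.28 for 4NQO (edgeR adjusted p = 2.45e-07 and 0.00214). Without the second I775E glycerol library (S18), CYC1 with this allele was called lower in glycerol than in YPD, at -0.96 (adjusted p = 0.00293).

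CYC7 encodes the minor cytochrome c, which is known to be made under hypoxia and stress. In YPD it had 1 to 6 counts in each of the 6 libraries, or 0.498 to 3.39 CPM. In 4NQO it stood at 23.9 and 17.3 CPM with the S96 allele, 15.8 and 12.2 with the YJM789 allele and 22.2 and 19.9 with I775E. In glycerol the S96 libraries gave 10.1 and 10.7 CPM, the YJM789 libraries 30.2 and 16.8 and the I775E libraries 101 and 126. The 2 I775E glycerol libraries, with 146 and 245 counts, were above the other 16, of which the highest had 74. Every allele rose in both treatments: in glycerol by 2.92 ± 0.59, 3.52 ± 0.51 and 6.23 ± 0.44 on the log2 scale for S96, YJM789 and I775E (edgeR adjusted p = 8.87e-05, 6.79e-07 and 1.56e-13), and in 4NQO by 3.90 ± 0.52, 2.77 ± 0.55 and 3.80 ± 0.52 (edgeR adjusted p = 7.03e-07, 0.000385 and 1.93e-06). In glycerol I775E exceeded S96 by 3.45 ± 0.33 (edgeR adjusted p = 6.03e-10), whereas in 4NQO the difference was 0.05 ± 0.33 (adjusted p = 0.963) and in YPD 0.15 ± 0.86 (adjusted p = 0.954). The glycerol response differed by 3.31 ± 1.03 (edgeR adjusted p = 0.0140). The YPD libraries of these alleles held 1 to 5 counts, and without the S96 YPD library S4 the difference was 2.07 with an adjusted p of 0.503. YJM789 against S96 in glycerol was at 1.18 ± 0.35 (edgeR adjusted p = 0.0560), and passed with no filter on low counts (0.0414) and in DESeq2 (0.0469).

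Because levels of different genes compare only per length, the share of CYC7 was taken from FPKM (fragments per kilobase, scaled to library size). CYC7 made up 1.01% to 4.60% of the CYC1 and CYC7 FPKM of a library in YPD, 9.72% to 13.7% in 4NQO with the S96 and YJM789 alleles and 21.5% and 23.1% with I775E. In glycerol it made up 4.56% and 6.14% with S96, 10.2% and 6.45% with YJM789 and 75.8% and 67.8% with I775E. CYC7 was thus the more abundant of the pair in the 2 I775E glycerol libraries, at 289 and 348 FPKM against 92.4 and 165 for CYC1, and in none of the other 16. Averaged over the 6 libraries of a medium, the log2 ratio of CYC7 to CYC1 was -5.46 ± 0.98 (SD, n = 6) in YPD, -2.60 ± 0.65 in 4NQO and -2.10 ± 2.71 in glycerol. It was higher by 2.86 in 4NQO and by 3.36 in glycerol (exact permutation test over 924 arrangements, two-sided, p = 0.00216 and 0.00433, adjusted p = 0.00325 and 0.00519 over 6 ratio tests; 0.00216 is the smallest p these libraries can give). Without the I775E libraries, the glycerol difference was 1.61 with an adjusted p of 0.0686 (exact permutation test, n = 4 against 4). These tests shuffled libraries freely over the 3 alleles and did not use shared parent cultures. In glycerol the mean log2 ratio was -4.16 with S96, -3.50 with YJM789 and 1.36 with I775E, so the pooled mean describes no single allele. With 2 libraries a group no test within an allele can go below p = 0.33 (exact permutation).

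**Figure D3:**
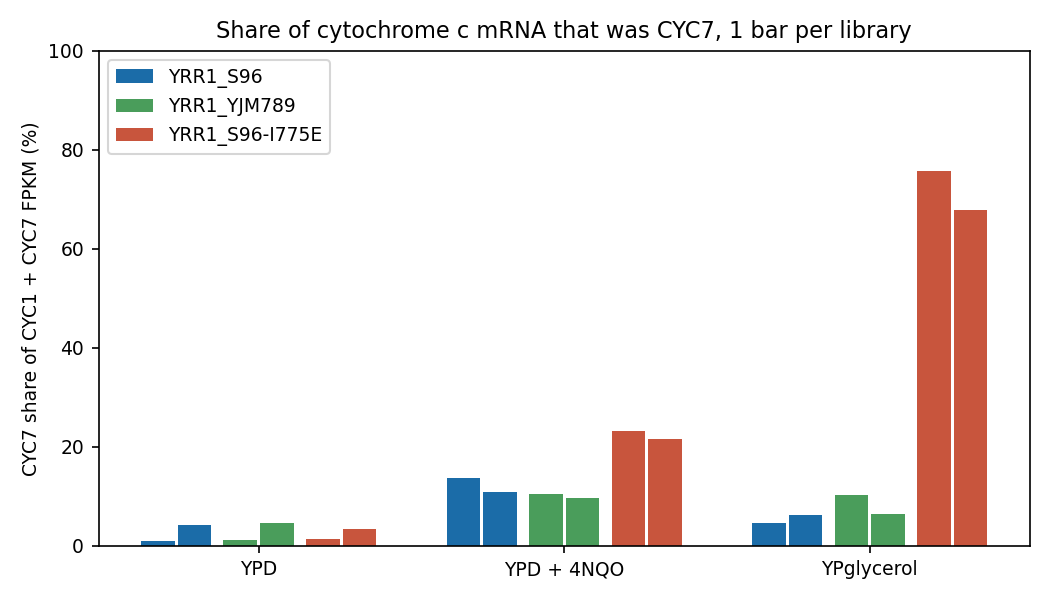
CYC7 as a percent of the summed CYC1 and CYC7 FPKM, 1 bar per library, by medium and allele. The bars of I775E in glycerol stand at 75.8% and 67.8%, and the highest of the other 16 at 23.1%.

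The ADP/ATP carriers exchange matrix ATP for cytosolic ADP, and PET9 is the carrier needed for respiratory growth. PET9 was the most abundant per length of the 9 genes with counts in every library, HYP2 not being measured, at 825 to 4043 FPKM. It stood at 1006 and 966 CPM with the S96 allele in YPD, 1831 and 1739 in 4NQO and 2997 and 3050.5 in glycerol. The YJM789 libraries gave 1050.05 and 967, 1540.5 and 1432, and 3799 and 3563 CPM in the same order, and the I775E libraries 807 and 901, 1124 and 1128, and 1298 and 1309.7. No treated library overlapped the YPD libraries of its allele. PET9 rose in glycerol by 1.62 ± 0.11, 1.87 ± 0.11 and 0.61 ± 0.11 on the log2 scale with S96, YJM789 and I775E (edgeR adjusted p = 1.39e-13, 8.32e-15 and 1.86e-05) and in 4NQO by 0.86 ± 0.11, 0.56 ± 0.11 and 0.40 ± 0.11 (edgeR adjusted p = 3.74e-07, 0.000341 and 0.00753). Against S96, I775E was lower, at -1.21 ± 0.11 in glycerol and -0.66 ± 0.11 in 4NQO (edgeR adjusted p = 2.89e-10 and 0.000161) and stood at -0.21 ± 0.11 in YPD (adjusted p = 0.251). The glycerol response differed by -1.01 ± 0.16 (edgeR adjusted p = 9.43e-06). The 4NQO call for I775E was lost without library S5, S11 or S12, at 0.28 to 0.37 (adjusted p = 0.0617 to 0.186).

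AAC1 showed the largest rise of the carriers in glycerol. In YPD and 4NQO its 12 libraries spread from 23.2 to 45.1 CPM, and in glycerol they stood at 394 and 408 with S96, 444 and 479 with YJM789 and 217 and 255 with I775E. The groups in glycerol did not overlap with one another or with any other. The rise was 3.91 ± 0.18, 4.11 ± 0.19 and 2.88 ± 0.18 on the log2 scale (edgeR adjusted p = 1.25e-17, 9.03e-18 and 9.11e-15). I775E was lower than S96 in glycerol, at -0.76 ± 0.15, and its glycerol response differed by -1.03 ± 0.26 (edgeR adjusted p = 8.80e-05 and 0.00272). In 4NQO AAC1 passed with the S96 allele, at 0.53 ± 0.21 (edgeR adjusted p = 0.0481), and this call was lost in DESeq2, in 3 other settings and without library S3, S4 or S9, at 0.24 to 0.55 (adjusted p = 0.0502 to 0.548). The other alleles stood at 0.41 and 0.01, and their 4NQO responses were not shown to differ from that of S96. AAC1 made up 2.40% to 4.08% of the AAC1 and PET9 FPKM in YPD, 1.89% to 3.04% in 4NQO and 10.7% to 16.7% in glycerol. The log2 ratio was higher in glycerol than in YPD by 2.27 (exact permutation test, n = 6 against 6, adjusted p = 0.00325) and stood at -0.29 in 4NQO (adjusted p = 0.115).

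AAC3, the hypoxic carrier, fell with each allele in glycerol, where AAC1 rose. It stood at 35.9 and 39.9 CPM with the S96 allele in YPD, 10.2 and 12.6 in 4NQO and 4.57 and 0.888 in glycerol. The YJM789 libraries gave 27.3 and 38.5, 15.8 and 14.3, and 1.63 and 3.88 CPM, and the I775E libraries 37.9 and 25.3, 16.7 and 21.7, and 2.78 and 5.66. All 6 YPD libraries lay above all 4NQO libraries, and these above all glycerol libraries, where 2 to 11 counts were left per library. AAC3 fell in glycerol, at -3.78 ± 0.45, -3.56 ± 0.45 and -2.82 ± 0.44 on the log2 scale with S96, YJM789 and I775E (edgeR adjusted p = 1.61e-08, 7.05e-08 and 1.96e-06). In 4NQO it fell, at -1.72 ± 0.35 with S96 and -1.13 ± 0.35 with YJM789 (edgeR adjusted p = 0.000242 and 0.0208), and gave -0.72 ± 0.34 with I775E (adjusted p = 0.128). The YJM789 call was lost without library S2, S7 or S8, at -1.22 to -0.87 (adjusted p = 0.0704 to 0.199). AAC3 did not pass between S96 and either other allele in any medium, with the differences between -0.27 and 0.73. AAC3 was 2.62% to 4.64% of the AAC3 and PET9 FPKM in YPD, 0.576% to 1.96% in 4NQO and 0.0299% to 0.447% in glycerol. The log2 ratio was lower, with a difference of -1.78 in 4NQO and -4.95 in glycerol (exact permutation test, n = 6 against 6, adjusted p = 0.00325 for both).

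**Figure D4:**
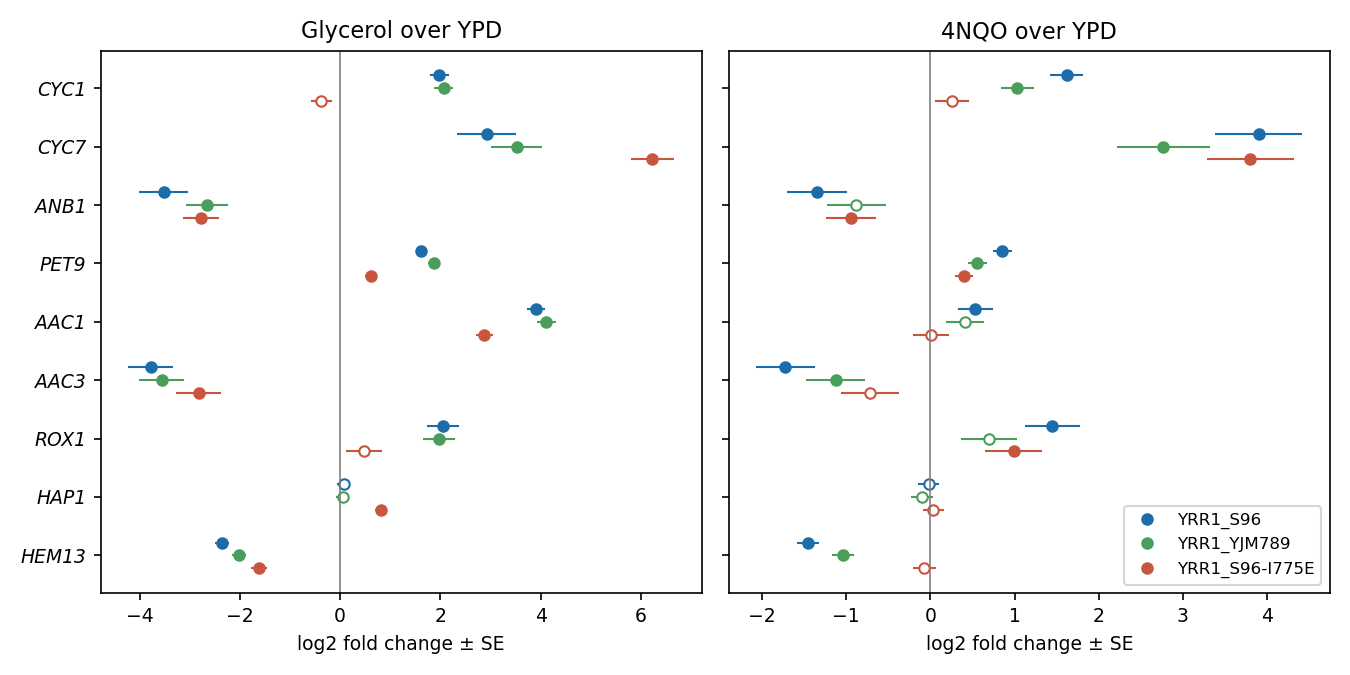
Log2 fold change ± SE of the 9 tested genes in glycerol (left) and 4NQO (right) over YPD, by allele; filled points passed edgeR's test at an adjusted p under 0.05. CYC1 rose by 1.98 and 2.07 in glycerol with the S96 and YJM789 alleles and stood at -0.37 with I775E.

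ANB1 encodes the hypoxic form of eIF5A, a translation factor that helps ribosomes through difficult sequences and carries the modified lysine hypusine. In YPD it stood at 19.9 and 32.4 CPM with the S96 allele, 24.9 and 33.9 with YJM789 and 77.1 and 60.98 with I775E. In 4NQO the same alleles gave 8.94 and 11.6, 20.4 and 11.8, and 39.4 and 32.0 CPM. In glycerol they gave 1.83 and 2.66, 4.08 and 5.17, and 15.96 and 5.15, from 4 to 23 counts per library. The I775E libraries lay above both S96 libraries in each of the media, and above both YJM789 libraries in YPD and 4NQO but not in glycerol. ANB1 fell in glycerol, at -3.52 ± 0.48, -2.66 ± 0.42 and -2.78 ± 0.36 on the log2 scale with S96, YJM789 and I775E (edgeR adjusted p = 2.32e-07, 2.86e-06 and 7.92e-08). In 4NQO it fell, at -1.35 ± 0.36 with S96 and -0.94 ± 0.30 with I775E (edgeR adjusted p = 0.00381 and 0.0185) and gave -0.88 ± 0.35 with YJM789 (adjusted p = 0.0762). I775E exceeded S96 by 1.38 ± 0.30 in YPD, 1.79 ± 0.35 in 4NQO and 2.12 ± 0.58 in glycerol (edgeR adjusted p = 0.00167, 0.00136 and 0.00347), and neither response was shown to differ (0.74 ± 0.67 for glycerol, 0.41 ± 0.46 for 4NQO). Single libraries bear on these calls: the YPD difference was 1.08 (adjusted p = 0.0589) without S3 and 1.20 (0.0522) without S5, and the glycerol difference 1.17 (0.191) without S17. The 4NQO falls were lost without S4 for the S96 allele (-0.99, adjusted p = 0.116) and without S5 or S12 for I775E (-0.81 and -0.83, 0.139 and 0.127), and with YJM789 ANB1 passed in 4NQO without S7 (-1.34, 0.0415).

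The enzyme made by HEM13 carries out an oxygen-requiring step of heme synthesis and is known as a Rox1 target that rises when heme is low. It stood at 445 and 458 CPM with the S96 allele in YPD, 155 and 173 in 4NQO and 83.7 and 91.4 in glycerol. The YJM789 libraries gave 400.1 and 369 CPM in YPD, 195 and 180.0 in 4NQO and 88.6 and 101 in glycerol. With I775E it was already low in YPD, at 175 and 168 CPM, gave 169.7 and 156 in 4NQO and stood at 61.8 and 50.97 in glycerol. The I775E YPD libraries overlapped the 4NQO libraries of S96 and I775E and lay below the YPD libraries of both other alleles. HEM13 fell in glycerol, at -2.37 ± 0.14, -2.02 ± 0.14 and -1.62 ± 0.15 on the log2 scale with S96, YJM789 and I775E (edgeR adjusted p = 3.81e-15, 1.42e-13 and 1.59e-10), and in 4NQO, at -1.46 ± 0.13 and -1.04 ± 0.13 with S96 and YJM789 (edgeR adjusted p = 3.81e-10 and 4.64e-07). With I775E the 4NQO change was -0.07 ± 0.14 (edgeR adjusted p = 0.742). I775E lay below S96, at -1.40 ± 0.13 in YPD and -0.65 ± 0.16 in glycerol (edgeR adjusted p = 1.81e-09 and 0.00148), and its responses differed by 1.38 ± 0.19 for 4NQO and 0.75 ± 0.21 for glycerol (edgeR adjusted p = 5.69e-06 and 0.00625). Without library S18 the glycerol difference between the alleles was -0.43 (adjusted p = 0.0892). In 4NQO the alleles stood at -0.01 ± 0.14 from each other (adjusted p = 0.972).

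ROX1, the repressor, rose in both treatments with the S96 allele, as CYC1 and CYC7 did. It stood at 29.4 and 13.8 CPM with the S96 allele in YPD, 59.6 and 55.7 in 4NQO and 94.2 and 80.3 in glycerol. The YJM789 libraries gave 30.2 and 30.5, 45.0 and 53.1, and 105 and 133 CPM, and the I775E libraries 33.0 and 15.8, 35.3 and 61.5, and 49.97 and 19.6. The lower I775E glycerol library lay within the range of the 6 YPD libraries and the higher one above it. ROX1 rose in glycerol by 2.05 ± 0.32 and 1.97 ± 0.31 on the log2 scale with S96 and YJM789 (edgeR adjusted p = 2.90e-06 and 3.25e-06), with 0.47 ± 0.36 for I775E (adjusted p = 0.255), which passed without library S5 (1.03, adjusted p = 0.0464) or S18 (1.01, 0.0184). In 4NQO it rose by 1.45 ± 0.33 with S96 and 0.99 ± 0.34 with I775E (edgeR adjusted p = 0.00101 and 0.0304), with 0.69 ± 0.33 for YJM789 (adjusted p = 0.149), which passed in the fit without the I775E libraries (0.0429). I775E lay below S96 in glycerol, at -1.38 ± 0.32, and its glycerol response differed by -1.58 ± 0.49 (edgeR adjusted p = 0.000662 and 0.0140), but the first was -0.73 (adjusted p = 0.0807) without library S18, and the second -1.03 to -0.90 (0.138 to 0.244) without S4, S5 or S18 and -1.48 (0.101) in DESeq2. The 4NQO calls were lost without S4 for S96 (0.92, adjusted p = 0.0850), and for I775E without S6 or S12 (0.49 and 0.52; 0.422 and 0.416) and in DESeq2 (0.96; 0.153).

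HAP1 in S288c and its relatives carries a Ty1 element near the end of its coding region, which weakens the protein; counts over the locus do not show which form the RNA had. HAP1 kept to 365 to 478 CPM in 16 libraries and reached 678 and 711 in the 2 I775E glycerol libraries. It rose in glycerol with I775E by 0.81 ± 0.13 on the log2 scale (edgeR adjusted p = 2.09e-06), against 0.07 ± 0.13 with S96 and 0.05 ± 0.13 with YJM789 (adjusted p = 0.662 and 0.770). I775E exceeded S96 in glycerol by 0.76 ± 0.13 and in its glycerol response by 0.74 ± 0.18 (edgeR adjusted p = 1.25e-05 and 0.00204). In 4NQO the 3 alleles stood between -0.10 and 0.04 (edgeR adjusted p = 0.643 to 0.922).

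**Figure D5:**
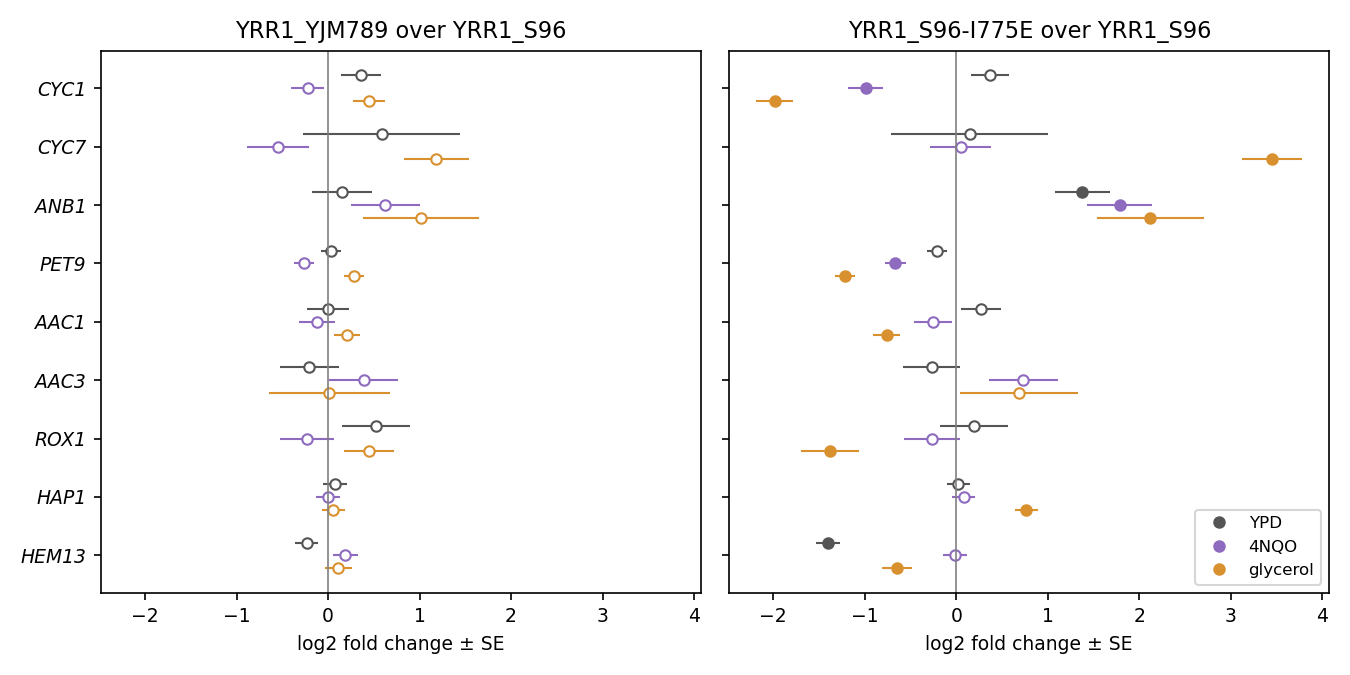
Log2 fold change ± SE of the 9 tested genes between alleles, in YPD, 4NQO and glycerol; filled points passed edgeR's test at an adjusted p under 0.05. None passed for YJM789 over S96; for I775E over S96 in glycerol CYC7 stood at 3.45 and CYC1 at -1.98.

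By rank of mean CPM over the 9 groups, the YJM789 and then the S96 glycerol cultures came first for CYC1, PET9, AAC1 and ROX1, and for each of these 4 genes neither of the 2 groups overlapped the next lower one. I775E in glycerol came last for CYC1, at 44.4 ± 18.7 CPM (SD, n = 2), overlapping S96 in YPD at 45.7 ± 0.92, and first for CYC7, at 114 ± 17.5, where the second group, YJM789 in glycerol, had 23.5 ± 9.50. ANB1 was highest with I775E in YPD (69.0 ± 11.4) and lowest with S96 in glycerol (2.25 ± 0.59), and its groups of ranks 2 to 6 each overlapped the next lower one. HEM13 was highest with S96 in YPD (452 ± 8.84) and lowest with I775E in glycerol (56.4 ± 7.64). The HAP1 groups of ranks 2 to 8 each overlapped the next lower one.

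Other genes of the same system were taken from lists. The genes that attach heme to cytochromes c and c1 or work with cytochrome c were 6: in glycerol 6 rose with S96, 5 with YJM789 and 3 with I775E, where 57.7%, 55.6% and 65.5% of all loci passed in either direction. With S96 these were led by CYB2, the lactate dehydrogenase that reduces cytochrome c (4.55), CYT1, cytochrome c1 (2.43), CCP1, cytochrome c peroxidase (1.65), and CYC3, the heme lyase of cytochrome c (1.24). With I775E in glycerol CYB2, CYC3 and CYT1 were lower than with S96, at -1.61, -1.20 and -0.78, and CCP1 was higher at 0.91. The median of the list was -0.51 in that comparison and -0.11 over all loci. In 4NQO 5 of 6 rose with S96 and 3 with either other allele, where 31.2%, 20.2% and 25.9% of all loci passed. Of the 7 other heme synthesis genes, 1 rose and 1 fell in glycerol with S96, a lower share than the 57.7% of all loci: HEM14, protoporphyrinogen oxidase (1.29), and HEM12, uroporphyrinogen decarboxylase (-0.65). In glycerol with YJM789 1 rose and 1 fell, where 55.6% of all loci passed. With I775E 2 rose and 3 fell, where 65.5% passed. With I775E in glycerol HEM14 and HEM2, the second enzyme of the pathway, were lower than with S96 (-0.95 and -0.70).

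The isoform pairs COX5A and COX5B, aerobic and hypoxic subunits of cytochrome oxidase, and HMG1 and HMG2, the HMG-CoA reductases of sterol synthesis, were on 2 lists, the aerobic partners and the other hypoxic genes. In glycerol I775E was below S96 for COX5A and HMG1 (-0.76 and -1.94) and above it for COX5B and HMG2 (2.83 and 0.81; edgeR adjusted p from 5.97e-12 to 1.70e-05). HMG2, smaller in change than the 4 leading hypoxic genes, is named as the partner of HMG1. COX5B stood at 54.2 and 86.8 FPKM with S96 in glycerol and 403 and 502 with I775E, and COX5A at 1258 and 1249 against 641 and 689. COX5A was thus the more abundant of the pair in all 4 of these libraries. With YJM789 in glycerol COX5B stood at 164 and 123 FPKM, also above both S96 libraries. The study reported COX5B as increased with both of these alleles against S96 in glycerol. For YJM789 over S96 in glycerol, 1 of the 10 other hypoxic genes and 1 of the 2 aerobic partners were called higher. None of either list was called lower, and 3.75% of all loci passed. Of the 10 other hypoxic genes, 5 were higher and 1 lower with I775E in glycerol, where 48.3% of all loci passed, and the list's median was 0.78 and that of all loci -0.11. OLE1, the fatty acid desaturase, was the lower gene (-2.19), and TIR2, a cell wall mannoprotein gene, was at 2.60. DAN1, another such gene, is given in counts only: it had 0 in both S96 YPD libraries and 0 to 20 elsewhere. Over YPD, glycerol lowered 5 of the 10 with S96 and raised 2, where 57.7% of all loci passed. TIR1 stood at -4.24 and TIR3 at -2.85. DAN4 went the other way, from 22.4 and 26.1 CPM in YPD to 71.8 and 85.2 in glycerol with S96. In 4NQO 3 were lowered and 2 raised with S96, where 31.2% of all loci passed.

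Both enzymes that make hypusine on eIF5A fell in glycerol and in 4NQO with each allele: LIA1, deoxyhypusine hydroxylase, at -2.47, -2.22 and -4.00 in glycerol and -1.31, -0.86 and -1.48 in 4NQO with S96, YJM789 and I775E, and DYS1, deoxyhypusine synthase, at -2.13, -1.84 and -1.52 and at -0.66, -0.52 and -0.44. In these comparisons 57.7%, 55.6% and 65.5% of all loci passed in glycerol, and 31.2%, 20.2% and 25.9% in 4NQO. In glycerol I775E was below S96 for LIA1 (-1.53) and above it for DYS1 (0.54), where 48.3% of all loci passed. Of the 3 other mitochondrial carriers, all rose in glycerol with S96, and in 4NQO 2 rose (57.7% and 31.2% of all loci passed): MIR1, the phosphate carrier (1.44 and 0.46), and PIC2, a copper and phosphate carrier (1.59 and 1.77). In glycerol I775E was lower than S96 for MIR1 (-0.84) and higher for PIC2 (1.84). Of the 12 other regulators, 2 rose and 3 fell in glycerol with S96, a lower share than the 57.7% of all loci, among them HAP4, the limiting subunit of the Hap2/3/4/5 activator (1.08), and UPC2, a sterol regulator of anaerobic genes (-1.28). HAP4 was lower with I775E than with S96 in all media, at -1.67 in YPD, -0.98 in 4NQO and -1.09 in glycerol (edgeR adjusted p = 2.96e-07, 0.000948 and 8.55e-06). In glycerol MGA2, an activator of OLE1, was lower as well (-1.55).

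In a description with no test, over the 9 group means on the log2 CPM scale, the genes most like each member were CPS1, MAM33 and CYC3 for CYC1 (r = 0.967, 0.965 and 0.958), DIT1, YCR061W and HUL5 for CYC7 (0.982 to 0.977), TRP3, HOM2 and ARO4 for ANB1 (0.976 to 0.969), QCR2, LSC1 and ATP3 for PET9 (0.981 to 0.971), MDH3 for AAC1 (0.998), YHR020W, YDR341C and THR1 for AAC3 (0.995 to 0.992), SKS1, CYC3 and PAM17 for ROX1 (0.979 to 0.968), YGL114W, PDR8 and TPC1 for HAP1 (0.980 to 0.975) and SEC7, HPT1 and SER2 for HEM13 (0.985 to 0.979). The 9 points come from the same 18 libraries, and the YPD and 4NQO points of an allele from shared parent cultures. AAC1 was also close to YMR175W-A and YMR173W-A (both 0.997).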

How the data were processed

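The libraries were unstranded TruSeq libraries sequenced on a MiSeq as read pairs of 76 bases. The authors set reads of rRNA and tRNA aside, mapped the rest to S288c with TopHat 2.0.12 and deposited raw counts per locus made with Rsubread on build R64-1-1. CASAVA 1.7 and DESeq2 1.8.1 are also named in the submitters' processing notes. The library totals ran from 1475372 to 2826771. In most libraries they exceed the highest number of read pairs that the study's methods give. A pair could therefore add more than 1 count, and mates are not independent. The authors also deposited FPKM values rounded to 1 decimal, used here for ratios between genes of different length. Deposited columns of the authors' own comparisons (fold changes and p-values) were not used.

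Counts were tested in edgeR 4.0.16 (R 4.3.3, limma 3.58.1) with a filter on low counts by group, TMM scaling and the quasi-likelihood test, all 18 libraries in 1 fit with a coefficient for each of the 9 groups, and Benjamini-Hochberg adjustment over the 5766 loci, at a threshold of 0.05. The 2 libraries of a group came from separate cultures. 4NQO and YPD cultures were split from shared parents, but the labels do not tie libraries to a parent. DESeq2 1.42.0, DESeq2 size factors, no filter, a filter at 5 CPM in 2 libraries, a fit without the I775E libraries and leaving out each library were the alternatives. Ratios were log2 of FPKM plus 0.1, tested by exact permutation (two-sided), with adjustment over the 6 tests run of 8 planned, since HYP2 had 0 counts. The permutation did not keep allele or parent culture as blocks. The edgeR code was tested on simulated data. Motifs and sequences were read from the RefSeq R64 genome with Python 3.11.15, in which 5977 of 5985 loci shared by name had the start and end of the files. Named were all 10 genes, up to 4 passing genes a list and comparison by size of change, and the 3 genes most like each member by Pearson r of group means, where the mean CPM was 10 or more. The members, the 7 lists and the tests were chosen with earlier results of these data known.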

Additional observations from a re-analysis of the deposited data

Results flagged for a closer look

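For 7 genes the response to glycerol differed between the I775E and S96 alleles in edgeR's test of the difference between the 2 responses, given on the log2 scale as I775E minus S96. CYC1 stood at -2.35 (adjusted p = 2.45e-07), PET9 at -1.01 (9.43e-06), AAC1 at -1.03 (0.00272) and ROX1 at -1.58 (0.0140). CYC7 stood at 3.31 (0.0140), HAP1 at 0.74 (0.00204) and HEM13 at 0.75 (0.00625). The last value is that of a smaller fall, from a YPD level that was already lower. Without library S4 the CYC7 value was 2.07 (adjusted p = 0.503), and the ROX1 value did not pass without S4, S5 or S18, at -1.03 to -0.90 (0.138 to 0.244). For 2 genes the response to 4NQO differed in the same test: CYC1 at -1.36 (adjusted p = 0.00214) and HEM13 at 1.38 (5.69e-06). SNF1 had 0 to 2 counts in all 6 I775E libraries, and YRR1 was lower with I775E than with S96 in every medium. The part of either gene in these differences was not tested.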

How the results depend on the processing

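Of 62 gene results that passed edgeR's test, 49 passed under every alternative run and 0 changed sign. Of 82 that did not pass, 76 did not pass under any alternative. The 6 gains were CYC1 (-0.96 without S18) and ROX1 (1.03 without S5, 1.01 without S18) for glycerol with I775E, ANB1 (-1.34 without S7) and ROX1 (0.69 without the I775E libraries) for 4NQO with YJM789, CYC7 for YJM789 against S96 in glycerol, and PET9 for the difference in 4NQO response of I775E (-0.44, adjusted p = 0.0348 in DESeq2). The number of the 9 genes that passed for YJM789 against S96 in glycerol was 1 with DESeq2 and 1 with no filter on low counts, in place of 0. The glycerol difference of the CYC7 to CYC1 ratio was 1.61 without the I775E libraries, in place of 3.36. Leaving out each library in turn gave 5 to 8 genes, in place of 8, for 4NQO with S96 (5 without S4), 7 to 9 in place of 7 for glycerol with I775E, 1 to 3 in place of 4 for 4NQO with I775E (2 without S5, 1 without S12) and 1 to 2 in place of 2 for I775E against S96 in YPD (1 without S3 and without S5). Over all loci DESeq2 called 12 in place of 3 for YJM789 against S96 in 4NQO and 67 in place of 36 for the difference in glycerol response. With a library left out, the calls over all loci for YJM789 against S96 were 5 to 42 in place of 51 in YPD, 1 to 6 in place of 3 in 4NQO, 45 to 178 in place of 216 in glycerol, and 6 to 95 in place of 36 and 6 to 33 in place of 50 for the responses to glycerol and 4NQO. For I775E against S96 they were 375 to 488 in place of 674 in YPD, 135 to 169 in place of 260 in 4NQO and 170 to 236 in place of 292 for the 4NQO response, and for 4NQO over YPD 760 to 927 in place of 1163 with YJM789 and 962 to 1126 in place of 1494 with I775E. The cause was not tested beyond the loss of a library. A group left with 1 library was assumed to vary like the others. The filter at 5 CPM moved the median of all loci by -0.12 and -0.11 for glycerol over YPD with S96 and YJM789. ANB1, AAC3 and CYC7 had under 30 counts in many libraries, which limits their precision. No paired analysis was possible because the replicate numbers in the labels are library numbers that no 2 groups share.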
